A study of Mus musculus with 12 samples.

Results

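Of 118680 open chromatin regions counted by ATAC-seq in mouse regulatory T cells (Treg), 9357 (7.88%) were weak and passed a threshold in stimulated wild-type (WT) Treg only. A region was taken when it held at least 3.6 CPM (its reads, scaled so that all reads on regions in that library sum to 1000000) in all 3 stimulated WT libraries and under 3.6 CPM in each of the 9 libraries of the other groups. The regions, also those named singly, were thus selected on their accessibility values, so that their levels and differences are descriptions, whereas their position, sequence and surroundings were not used. They made up 13.4% of the 69957 regions that reached the threshold in at least 3 libraries, which were the regions tested for differences, and 16.5% of the 56680 regions at or over the threshold in every stimulated WT library. The same rule with another group in the place of stimulated WT found 167 regions for ex vivo WT, 51 for ex vivo Ikzf1-cko and 52 for stimulated Ikzf1-cko Treg.

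The 12 libraries came from sorted YFP+ Treg of Foxp3-YFP-Cre mice, called WT, and of mice with the added floxed allele, Ikzf1-fl-Foxp3-YFP-Cre, called Ikzf1-cko, in which Ikaros is lost from cells that express the Foxp3-driven Cre. All mice of both genotypes thus carried the Foxp3-YFP-Cre allele. Treg labelled as derived from spleen were used ex vivo, without stimulation, or after 4 hr on plate-bound anti-CD3 with anti-CD28, and each of the 4 groups had 3 libraries of 100000 cells, which the methods call biological replicates. The sources used here give no age of the mice for this assay and do not tie a library to a mouse. Of the Treg and T cell markers Foxp3, Il2ra, Ctla4, Ikzf2, Cd3e and Cd4, 5 of 6 had a region over a start site, with 2.81 to 36.4 CPM over the libraries, and Ikzf2 had none. Of 11 markers of B, CD8 T, myeloid, NK and erythroid cells, 3 had a region there, of which Cd8b1 held 13.1 to 21.9 CPM and Cd8a and Gata1 stayed under the threshold in all 12 libraries.

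The stimulated WT libraries were the shallowest as a group, with 4808916 to 6047073 counted reads, against 5197669 to 15355521 in the other 9, and their reads were spread most widely over the regions. The strongest 1% of regions took 11.4% to 12% of the reads in stimulated WT and 13.8% to 15.4% elsewhere. The 34257 regions at or over 3.6 CPM in all 12 libraries took 65.7% to 69.7% in stimulated WT and 76.8% to 83.7% elsewhere. All 3 stimulated WT libraries had this wider spread and no library of another group did, so that it cannot be told apart from the condition itself in these data.

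In ATAC-seq the Tn5 transposase cuts DNA that is not wrapped in nucleosomes and leaves sequencing adapters there, so that reads pile up over promoters and enhancers. A lower level of insertion takes place over the rest of the genome in every library, and a region drawn around it holds few reads. Enhancers that respond to T cell receptor signals can lie near the genes they serve or far from them. They often hold sites for AP-1, NFAT and NF-kB, factors that the signal activates. In Treg, Foxp3, Runx1 and Ikaros occupy many enhancers that are open before stimulation as well.

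Sequences of the reference are shown for the 3 regions with the highest mean level, for the region at the median of the mean level, and for the region nearest to a start site of a gene on the T cell lists, since they show what DNA the weak signal lay on. They are the central 300 bases on the plus strand of mm9, at chr14:44075395-44075694, chr14:36851612-36851911, chr4:153114277-153114576, chr1:146836686-146836985 and chr4:48065756-48066055, and capitals mark GGGAA, the core of the Ikaros site, on either strand. The first 4 are intergenic, and the fifth lies in an intron of Nr4a3, an orphan nuclear receptor gene induced by T cell receptor signals.
OCR_35172: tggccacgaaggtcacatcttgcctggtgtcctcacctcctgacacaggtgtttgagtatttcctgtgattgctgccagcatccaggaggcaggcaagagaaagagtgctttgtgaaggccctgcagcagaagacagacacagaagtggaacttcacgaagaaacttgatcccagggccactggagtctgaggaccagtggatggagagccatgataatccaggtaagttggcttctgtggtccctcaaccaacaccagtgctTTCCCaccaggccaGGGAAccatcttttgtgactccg
OCR_34974: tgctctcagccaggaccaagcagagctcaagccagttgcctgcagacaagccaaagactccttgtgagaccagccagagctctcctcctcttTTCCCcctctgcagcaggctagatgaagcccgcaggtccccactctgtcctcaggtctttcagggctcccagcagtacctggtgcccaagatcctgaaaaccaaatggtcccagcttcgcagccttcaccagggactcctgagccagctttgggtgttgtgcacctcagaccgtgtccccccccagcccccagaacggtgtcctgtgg
OCR_83818: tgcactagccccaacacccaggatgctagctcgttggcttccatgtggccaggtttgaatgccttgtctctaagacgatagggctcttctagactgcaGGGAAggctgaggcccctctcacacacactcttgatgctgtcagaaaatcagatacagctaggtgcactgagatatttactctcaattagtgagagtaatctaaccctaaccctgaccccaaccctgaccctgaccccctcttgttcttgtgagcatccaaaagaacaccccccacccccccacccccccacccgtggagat
OCR_5857: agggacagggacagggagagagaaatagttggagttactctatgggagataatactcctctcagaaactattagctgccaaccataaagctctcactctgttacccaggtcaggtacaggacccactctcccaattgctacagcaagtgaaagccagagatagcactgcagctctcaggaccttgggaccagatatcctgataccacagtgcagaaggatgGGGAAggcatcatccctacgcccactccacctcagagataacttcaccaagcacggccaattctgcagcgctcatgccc
OCR_78534: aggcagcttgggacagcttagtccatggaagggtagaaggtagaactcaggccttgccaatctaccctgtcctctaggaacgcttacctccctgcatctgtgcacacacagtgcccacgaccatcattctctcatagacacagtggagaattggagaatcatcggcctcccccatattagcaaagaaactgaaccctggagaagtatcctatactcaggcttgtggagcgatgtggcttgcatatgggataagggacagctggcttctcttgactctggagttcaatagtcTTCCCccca
None of these 5 windows held TGANTCA, the letters bound by AP-1 (Fos and Jun), TGTGGTT, bound by Runx factors, TGTTTAC, bound by forkhead factors, the NF-kB-like motif (GGGA and TCC with 3 bases between) or the CTCF-like motif (CCA, AG and GGC with 2 bases between each) on either strand.

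The regions were weak in stimulated WT as well. The median of the 9357 regions was 5.62, 4.57 and 5.2 CPM in the stimulated WT libraries 1, 2 and 3, from 34, 25 and 25 reads. It was 2.12, 1.99 and 1.4 CPM in ex vivo WT, 2.06, 1.63 and 1.4 CPM in stimulated Ikzf1-cko, and 0.847, 0.872 and 1.71 CPM in ex vivo Ikzf1-cko. The stimulated WT libraries stood above the 9 others, as the rule requires, and ex vivo Ikzf1-cko libraries 1 and 2 were the lowest. A single region with 25 reads, the median in stimulated WT libraries 2 and 3, has a 95% Poisson interval of 16.2 to 36.9 reads. With 11 reads, the median in ex vivo WT library 1, the interval is 5.49 to 19.7 reads. These intervals give the counting error of 1 region alone, and not the error of a median over the 9357 regions. In bulk chromatin, a signal from few cells and a weak signal from all cells cannot be told apart.

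**Figure D1:**
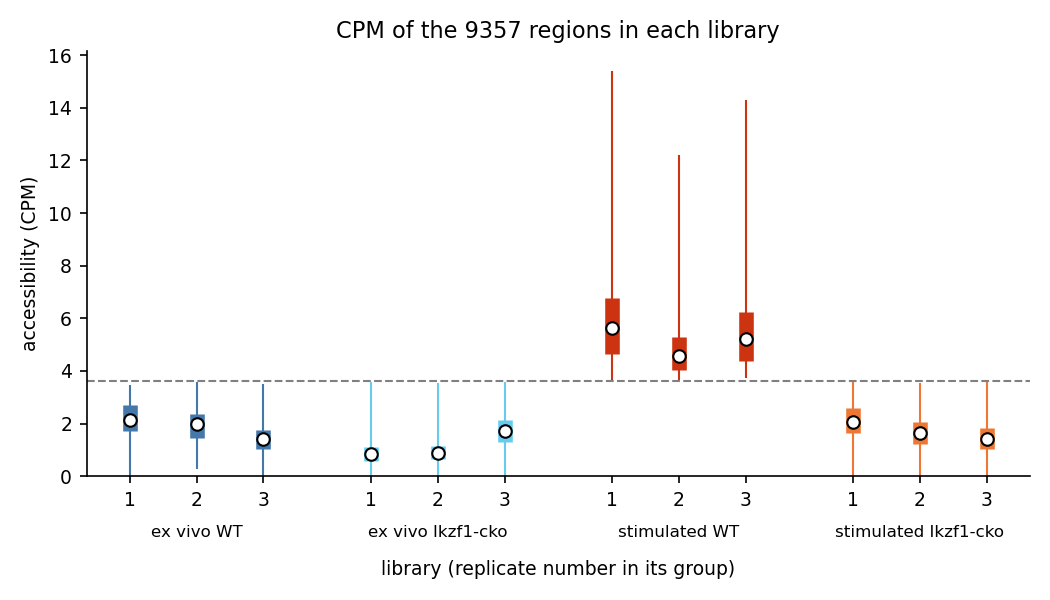
Accessibility in CPM (y axis) of the 9357 regions in each of the 12 libraries (x axis, by group and replicate); circles are medians, thick bars run between the quartiles, thin lines from the lowest to the highest region, and the dashed line is the threshold of 3.6 CPM. The stimulated WT medians of 4.57 to 5.62 CPM lie just above the threshold, and the other medians lie between 0.847 and 2.12 CPM.

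Most of the regions lay close to the threshold. The mean over the stimulated WT libraries ran from 3.68 to 11.6 CPM with a median of 5.17 CPM, which is the 34.1 percentile of the same mean over all tested regions, and the highest member was at the 74.8 percentile. Only 11 of the 9357 regions had a mean of at least 10 CPM, and 3298 (35.2%) had a lowest stimulated WT value under 4 CPM. The median of the lowest stimulated WT value was 4.2 CPM and that of the highest value in the other 9 libraries was 2.69 CPM. In 2185 regions the lowest stimulated WT value was at least 2 times the highest other value. The highest of the other libraries was ex vivo WT library 1 for 33.6% of the regions, stimulated Ikzf1-cko library 1 for 27% and ex vivo WT library 2 for 18.9%.

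The regions just inside the threshold had a lowest stimulated WT value of 3.64 CPM, from 22 reads in library 1, a value that several regions share, and 3 of these were named. OCR_75353 held 3.64, 4.2 and 4.16 CPM in stimulated WT, and its highest value elsewhere was 2.91 CPM. The 3 regions just outside met every other part of the rule and had 17 reads, 3.54 CPM, in stimulated WT library 3. One of them, OCR_48046 in an intron of Erg, held 3.8 and 3.65 CPM in stimulated WT libraries 1 and 2 and up to 3.31 CPM elsewhere, so that a few reads separate the regions inside from those outside.

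Each stimulated WT library was also read without its own values being used in the choice, whereas the 9 libraries of the other groups were held under the threshold as before. Regions were chosen with 2 stimulated WT libraries and the 9 others, which gave 11084, 17275 and 12909 regions with library 1, 2 and 3 left out. In the library left out, 84.4%, 54.2% and 72.5% of them were at or over 3.6 CPM, with medians of 5.29, 3.65 and 4.57 CPM, where the median of the highest other library was 2.62, 2.44 and 2.56 CPM. Of all 118680 regions, 66.9%, 60.3% and 62.8% were at the threshold in these libraries, and of the tested regions 89.9%, 91.1% and 88.4%. Library 2 thus passed the threshold at a smaller share of the chosen regions than of all regions. The value in the library left out was over all 9 libraries of the other groups in 95.9%, 88.3% and 92.6% of the regions, a share that the low values required of those 9 libraries raise. For the few regions chosen in the same way for the other groups, 49.4% to 66.2% were at the threshold in the library left out and 63% to 84.4% were over the other 9 libraries.

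**Figure D2:**
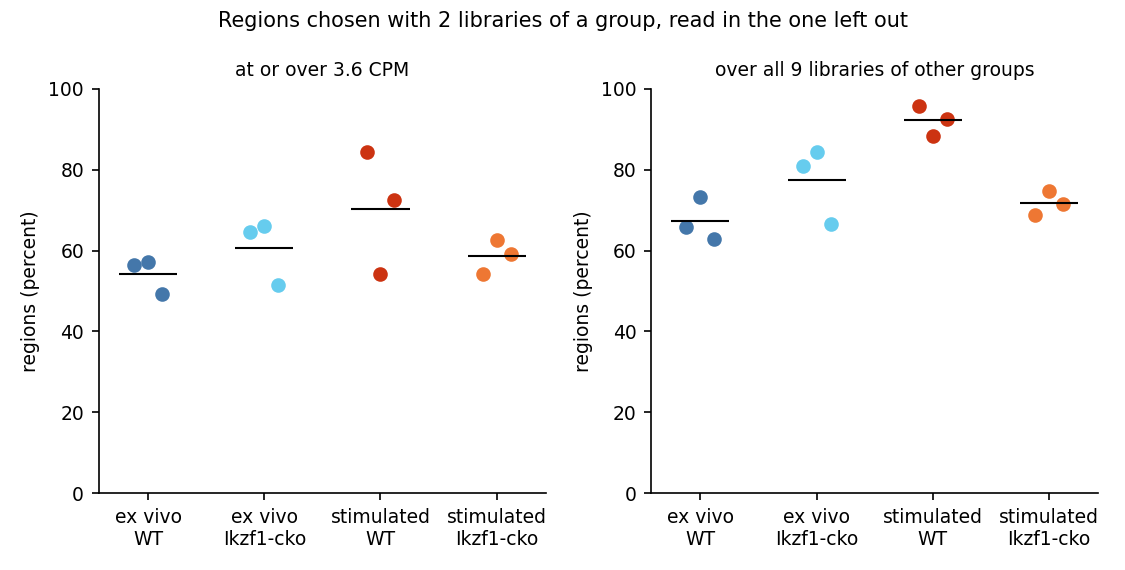
Percent of regions (y axes) chosen with 2 libraries of a group (x axes) that were at or over 3.6 CPM (left) or over all 9 libraries of the other groups (right) in the library left out; each point is a library and each line the mean of 3. Stimulated WT libraries lie at 54.2% to 84.4% on the left and at 88.3% to 95.9% on the right.

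The order of the regions by strength was poorly shared between the replicates. Across the 9357 regions the Spearman correlation between stimulated WT libraries was 0.324 (1 and 2), 0.421 (1 and 3) and 0.233 (2 and 3), as a description over regions that share their libraries. Across all tested regions it was 0.867 to 0.896 between the same libraries, and the narrow range of levels left by the rule is part of that contrast. Stronger regions were longer ones, with a Spearman correlation of 0.64 between mean CPM and length, and the same correlation was 0.67 over regions at the threshold in all 12 libraries.

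The excess in stimulated WT was not limited to the regions that passed the threshold. Of 53044 regions under 3.6 CPM in the same 9 libraries, the 9357 were 17.6%, and the other 43687 reached 3.6 CPM in some or none of the stimulated WT libraries. Their median was 2.98, 2.56 and 2.91 CPM in stimulated WT libraries 1, 2 and 3 and 1.02 to 1.74 CPM in the other 9 libraries, with no overlap. The choice of these regions held the other 9 libraries low, which fixes part of the difference. In 60.9% of these other weak regions the stimulated WT mean was over all 9 other libraries, and in 37.4% all 3 stimulated WT libraries were. Among the tested regions outside the 9357, all 3 stimulated WT libraries were over the other 9 in 10.4%.

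Longer regions reached the threshold more often. Among regions under 3.6 CPM in the other 9 libraries, 4.26% of those under 300 bases were above it in stimulated WT only, 21% of those of 300 to under 400 bases, 45.2% of those of 400 to under 500 bases and 97.2% of the 145 regions of 700 bases or more. A fixed number of reads is reached sooner by a longer region, so the length of the 9357 regions is in part set by the rule. Their median length was 405 bases, between 156 bases (OCR_35135) and 1155 bases (OCR_83818), against 607 over all tested regions, 907 over regions at the threshold in all 12 libraries and 274 over the other weak regions. Per kilobase, the stimulated WT signal of the 9357 regions had a median of 12.8 CPM, against 11.8 over all tested regions and 14.6 over regions at the threshold in all 12 libraries, and their ex vivo WT signal had a median of 4.4 CPM per kilobase, against 10.3 and 17.2.

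When the counts were scaled by library totals, the differences the rule selects for were counted as called in edgeR's quasi-likelihood test with a Benjamini-Hochberg adjusted p under 0.05 and a log2 fold change beyond 1 in either direction. Of the 9357 regions 8655 (92.5%) were called and all of these were higher in stimulated than in ex vivo WT, where 20.0% of all tested regions were called and 17.7% were called as higher. The median log2 fold change was 1.59, and 0.04 over all tested regions. Between stimulated Ikzf1-cko and stimulated WT, 8715 (93.1%) were called and all were lower in Ikzf1-cko, against 21.3% of tested regions called and 20.2% called as lower, with a median of -1.67 and -0.11 over all tested regions. These counts restate the rule, which used the same libraries, and the 2 comparisons share the stimulated WT libraries.

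The comparisons without stimulated WT gave few calls. Between ex vivo Ikzf1-cko and ex vivo WT, 668 of the 9357 (7.14%) were called, all lower in Ikzf1-cko, against 4.63% of tested regions called and 4.04% called as lower, and the median was -0.65. Between stimulated and ex vivo Ikzf1-cko, 896 (9.58%) were called, all higher after stimulation, against 3.65% of tested regions called and 3.02% called as higher, and the median was 0.58. Both counts rested on single libraries. Without ex vivo Ikzf1-cko library 3 they were 4058 (43.4%) and 3781 (40.4%), against 12.5% and 9.71% of tested regions. Without stimulated Ikzf1-cko library 1 the second was 276 (2.95%), against 2.17% of tested regions. Without ex vivo WT library 2 the first was 123 (1.31%), under the 3.21% of tested regions.

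With loess offsets, which centre the log2 ratios of each library at every level of abundance, the share called among the 9357 regions was close to that of all tested regions. In stimulated against ex vivo WT 647 (6.91%) were called, against 7.10% of all tested regions, and the median log2 fold change was 0.23 in place of 1.59. In stimulated Ikzf1-cko against stimulated WT 511 (5.46%) were called, against 6.74% of all tested regions, with a median of -0.17. In ex vivo Ikzf1-cko against ex vivo WT the share was 0.834% against 2.27%, and in stimulated against ex vivo Ikzf1-cko it was 1.98% against 2.15%. TMM in edgeR and the size factors of DESeq2, which apply 1 factor to a library, gave shares of 92.4% and 91.3% in stimulated against ex vivo WT. Of all tested regions, 20.1% and 19.9% were called there. The choice between 1 factor for a library and an offset that depends on abundance thus decided whether these regions were called. The number of regions that met the rule moved with every scaling, from 9357 under library totals to 4197 under TMM, 4304 under the size factors of DESeq2 and 1347 under loess-normalized CPM, of which 4197, 4079 and 1158 were among the 9357.

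**Figure D3:**
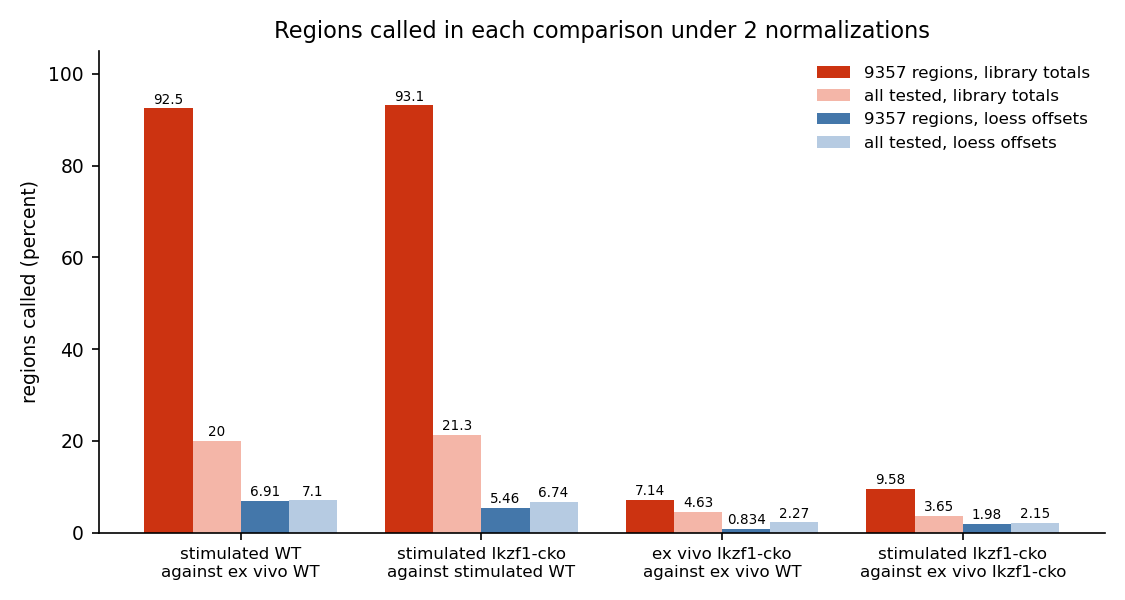
Percent of regions called (y axis, adjusted p under 0.05 and absolute log2 fold change over 1) in the 4 comparisons (x axis), for the 9357 regions and for all 69957 tested regions, with library totals in red shades and with loess offsets in blue shades, the darker shade for the 9357 regions. The share of the 9357 regions is 92.5% and 93.1% in the comparisons with stimulated WT under library totals, and 6.91% and 5.46% with loess offsets.

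Most of the regions lay between genes. Of the 9357 regions 5562 (59.4%) were intergenic, 2943 (31.5%) lay in introns, 623 (6.66%) over exons and 229 (2.45%) over a start site, where start site means that the region covers the first base of an annotated transcript. Of all tested regions 37.8% were intergenic and 20% lay over a start site, and of the regions at the threshold in all 12 libraries 28.4% and 35.4%. The other weak regions were 49.3% intergenic and 1.89% over a start site. The median distance to the nearest start site was 46419 bases for the 9357 regions, 22407 for the other weak regions, 9290 for all tested regions and 3248 for regions at the threshold in all 12 libraries. Levels differed little by position among the 9357 regions, with medians in stimulated WT library 1 of 5.79 CPM over start sites, 5.46 over exons, 5.62 in introns and 5.62 between genes. The rule leaves a narrow range of levels, which by itself limits such differences.

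The surroundings were poor in genes and in open chromatin. The median number of gene starts within 1 Mb was 7, against 11 for the other weak regions, 15 for all tested regions and 18 for regions at the threshold in all 12 libraries. Of tested regions with under 5 gene starts within 1 Mb, 42.6% were among the 9357, against 3.77% of those with 40 or more. Among regions under the threshold in the other 9 libraries, a choice that used no stimulated WT values, the same shares were 27% and 8.82%. The list they come from can still hold peaks called in stimulated WT alone. The nearest region at the threshold in all 12 libraries was at a median of 206942 bases, against 10692 for all tested regions, 31842 for the other weak regions and 6686 between regions of that kind themselves. Of tested regions within 10 kb of such a region 1.98% were among the 9357, and of those at least 500 kb away 63.1% were. Among the regions under the threshold in the other 9 libraries these shares ran from 5.41% within 10 kb to 31.6% between 100 and 500 kb and 28.9% beyond.

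**Figure D4:**
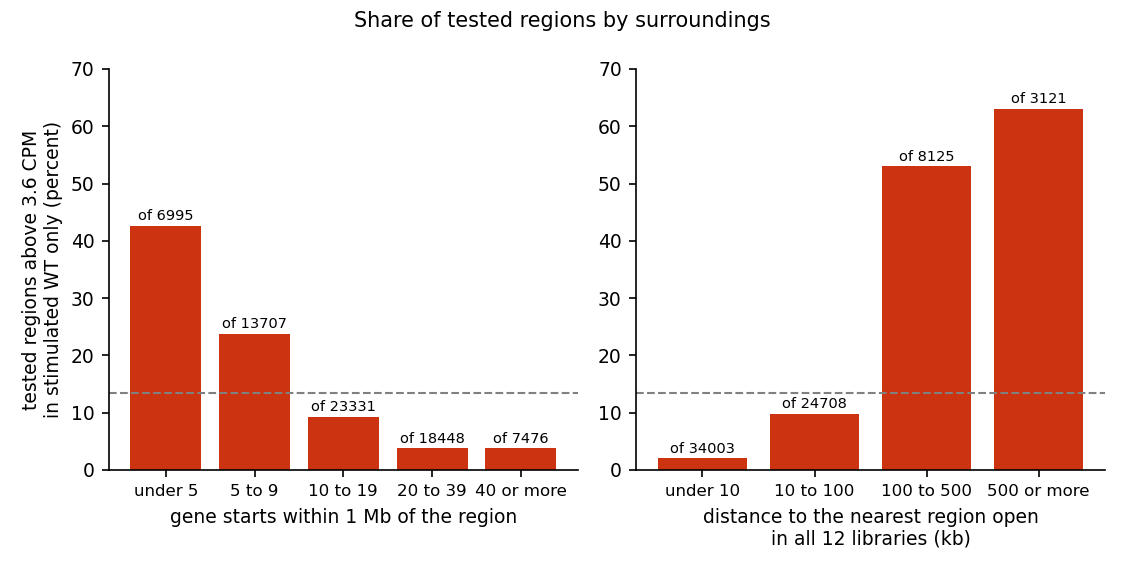
Percent of tested regions that were above 3.6 CPM in stimulated WT only (y axes), by the number of gene starts within 1 Mb (left) and by the distance in kb to the nearest region open in all 12 libraries (right); the dashed line is the share of 13.4% over all tested regions and the numbers above the bars are the regions in each class. The share falls from 42.6% to 3.77% on the left and rises from 1.98% to 63.1% on the right.

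The regions lay near each other. Of the 9357, 26.6% had another within 10 kb and 78.4% within 100 kb, against 7.69% and 30% of all tested regions that had one of the 9357 at these distances. Of 2486 windows of 1 Mb with a tested region, 1802 held at least 1 of the 9357, and 4652 of the regions fell in 269 windows with at least 10. Windows with no region open in all 12 libraries held 22.9% of the 9357 and 4.66% of all tested regions. The 8 windows with the most held 36 to 44 of them each, among 41 to 105 tested regions. The first, chr16:7000001-8000000, held 44 among 60 and lies over Rbfox1, a splicing factor gene of neurons and muscle. Among the others, a window on chromosome 13 with Irx1 and Irx2, homeobox genes of embryonic patterning, held 36 among 45 tested regions, and the window of Myt1l, a neuronal transcription factor, held 38 among 41.

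The genes that held the most regions were long, and several of them belong to the nervous system. Among 15008 protein-coding genes with a tested region, 1455 held at least 1 of the 9357, and 188 held at least 5. The median length of those 188 genes was 422 kb, against 24.5 kb over the genes with a tested region, and 80 of them had no region open in all 12 libraries. A longer gene can hold more regions of any kind, so the choice of genes with at least 5 sets part of this length. Csmd1, a large membrane protein of the nervous system, held 28 among its 31 tested regions, and Park2, which encodes a ubiquitin ligase, 28 among 38. Dscam, an adhesion molecule of neurons, held 27 among 37, Ptprg, a receptor phosphatase, 26 among 27, and Cdh13, a cadherin, 24 among 27. Fhit, a long gene at a fragile site, also held 24, but among 60 tested regions of which 10 were open in all 12 libraries, and Ptprn2, another phosphatase family gene, held 24 among 47. Dab1, an adaptor of Reelin signaling in the brain, held 23 among 24, and Odz4, a teneurin of the nervous system, 23 among 45 with 10 open in all 12 libraries. The share of a gene's tested regions thus varied widely among the genes with the most of the 9357.

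Lists of genes were read by the share of tested regions within 100 kb of a start site that were among the 9357, where the share of all tested regions was 13.4%. For 61 genes of nerve and muscle it was 40.8% (137 of 336 regions), and 35 of these genes had at least 1. For the olfactory and vomeronasal receptor genes, which lie in clusters silent in T cells, it was 12% (105 of 877). For 144 ribosomal protein genes, expressed in all cells, it was 4.28% (61 of 1426), and for genes of other blood cells 2.96% (8 of 270). For 42 genes induced by T cell receptor signals it was 1.57% (14 of 891 regions), near 10 of the genes, and for the Treg identity genes found in the annotation (30 genes) it was 0.499% (4 of 802), near 4 of them. Of the tested regions near these T cell lists, 67.2% and 60% were open in all 12 libraries, against 19% near the nerve and muscle genes. This share was 48.7% near the receptor genes, 63.7% near the ribosomal protein genes, 58.9% near genes of other blood cells and 49% over all tested regions. A region at the threshold everywhere cannot be among the 9357. The lists were chosen with earlier results of these data known.

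The chromosomes differed widely. Chromosome 14 held 599 of the 9357 regions, 19.5% of its tested regions, and chromosome 8 held 613 or 17.8%, whereas chromosome 11 held 200 (5.47%), chromosome 19 held 32 (2.2%) and chromosome X held 13 (1.22%). Of the regions under the threshold in the other 9 libraries, the 9357 were 21.7% on chromosome 14, 21.6% on chromosome 8, 9.29% on chromosome 11, 4.13% on chromosome 19 and 1.9% on chromosome X. The X chromosome was also poor in tested regions, with 6.58 per Mb, where chromosome 19 had 25 and chromosome 14 had 25.3.

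**Figure D5:**
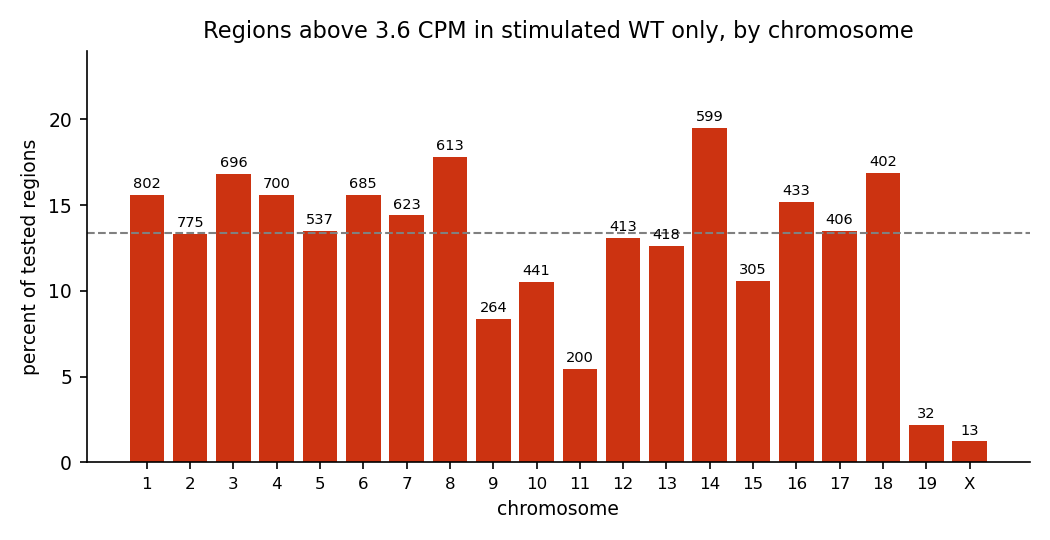
Regions above 3.6 CPM in stimulated WT only as a percent of the tested regions of each chromosome (y axis), with their number above each bar and the share of 13.4% over all tested regions as a dashed line. Chromosome 14 is highest at 19.5%, and chromosomes 19 and X are lowest at 2.2% and 1.22%.

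The excess of weak signal in stimulated WT followed the same chromosomes in regions chosen by the CPM of the other 9 libraries alone, a set that includes the regions described here. Over the 52355 autosomal regions under 3.6 CPM in the 9 libraries of the other groups, the summed CPM of stimulated WT libraries 1, 2 and 3 was 2.39, 1.99 and 2.25 times the mean of those 9 libraries (2.21 ± 0.2, SD, n = 3). Over the 683 such regions of chromosome X the ratios were 0.959, 0.98 and 0.99 (0.977 ± 0.016, SD, n = 3). Chromosome 19 had the lowest autosomal ratio (1.55 ± 0.072) and chromosome 8 the highest (2.49 ± 0.3, both SD, n = 3). The 9 libraries in the denominator were chosen to be low, which raises every ratio, and the list of regions can hold peaks called in stimulated WT alone. The set was thus not free of stimulated WT, and the ratios serve only to compare chromosomes within it. For ex vivo WT, ex vivo Ikzf1-cko and stimulated Ikzf1-cko the same choice gave 22866, 21253 and 21414 autosomal regions, with mean ratios of 1.04, 0.795 and 0.944. On chromosome X the mean ratios of these groups were 1.12, 1.1 and 1.04, above their autosomal means, whereas in stimulated WT it was below. In ex vivo Ikzf1-cko chromosome X also stood apart from the single autosomes, which ran from 0.76 (chromosome 17) to 0.849 (chromosome 9). Reads on all regions of chromosome X were 1.35% to 1.4% of the total in stimulated WT and 1.73% to 1.95% in the other 9 libraries.

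Gene-poor positions took a larger share of reads in stimulated WT, also outside the 9357 regions. Regions with under 5 gene starts within 1 Mb took 7.57% to 8.83% of the reads in stimulated WT and 4.66% to 6.2% in the other 9 libraries, and without the 9357 regions 6.16% to 7.06% and 4.39% to 5.56%. Regions over a start site took 42% to 43.6% in stimulated WT and 45.3% to 52.1% elsewhere. Stimulated WT did not overlap the other libraries in these shares. Regions with at least 40 gene starts within 1 Mb took 12.1% to 13.3% in stimulated WT, above the 11.5% to 11.8% of ex vivo WT and overlapping the 12.7% to 13.1% of stimulated Ikzf1-cko.

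The regions were richer in G and C than their surroundings. The median GC content was 51.8%, against 50.5% over all tested regions and 49.8% over the other weak regions, whereas the 50 kb on each side had a median of 41.5%, against 44.1% and 42.7%. The regions thus exceeded their surroundings by a median of 9.49 percentage points, against 5.69 over all tested regions and 6.6 over the other weak regions. CpG pairs had a median of 8.88 per kilobase, close to the 9.32 of the other weak regions, against 14.6 over all tested regions and 20.6 over regions open in all 12 libraries. Words of 16 bases that occur at least 50 times in the genome covered a median of 2.04% of a region, against 1.48% over the other weak regions and 1.87% over all tested regions. They covered at least 50% in 2.5% of the 9357 regions, in 2.7% of the other weak regions and in 0.642% of tested regions.

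The AP-1 letters were less frequent than in other weak regions. TGANTCA occurred 0.276 times per kilobase in the 9357 regions, 0.416 times over all tested regions and 0.553 times over the other weak regions. At a length of 300 to under 400 bases, 9.3% of the 3291 regions held it, against 16.3% of tested regions, 16.4% of the other weak regions and 22.2% of regions open in all 12 libraries. It was denser in the few regions that the rule found for the other groups, with 0.868 matches per kilobase in ex vivo WT, 1.08 in ex vivo Ikzf1-cko and 1.52 in stimulated Ikzf1-cko. Of the 52 regions seen only in stimulated Ikzf1-cko, 46.2% held it, against 10.6% of the 9357.

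The other motifs were searched on both strands as well. The Runx letters TGTGGTT occurred 0.207 times per kilobase in the 9357 regions and 0.29 times over all tested regions, the forkhead letters TGTTTAC 0.0851 and 0.127 times, and the CTCF-like motif 0.0866 and 0.171 times. The Ikaros core GGGAA, which is short and rich in G, occurred 3.3 and 3.2 times, and the NF-kB-like motif, which can overlap it, 0.18 and 0.189 times. At 300 to under 400 bases GGGAA was in 68% of the 9357 regions and in 64% of tested regions, TGTGGTT in 6.99% and 10.9%, TGTTTAC in 3.04% and 4.27%, the NF-kB-like motif in 5.59% and 5.09%, and the CTCF-like motif in 3.65% and 9.54%. In the other weak regions of that length the shares were 63.8% for GGGAA, 10.5% for TGTGGTT, 3.81% for TGTTTAC, 4.93% for the NF-kB-like and 5.35% for the CTCF-like motif. A match is a run of letters, and no binding was measured in these data.

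Among the strongest regions, OCR_35172 (chr14:44075351-44075739, intergenic, 10.6 kb from Gm9597) had the highest mean. It held 12.9, 9.5 and 12.5 CPM in stimulated WT libraries 1, 2 and 3, from 78, 52 and 60 reads, 3.46, 3.44 and 2.68 CPM in ex vivo WT, 1.24, 1.53 and 3.16 in ex vivo Ikzf1-cko, and 3.36, 2.75 and 2.62 in stimulated Ikzf1-cko. The stimulated WT libraries were well above the others, which overlapped among themselves. The next regions by mean were OCR_34974 (11.1 ± 2.8 CPM), also on chromosome 14, OCR_83818 (10.8 ± 4.33 CPM, 135 kb from the nearest start site), OCR_104617 in an intron of Dock1 (10.7 ± 1.06 CPM) and OCR_108879 in an intron of Zfp423 (10.7 ± 2.11 CPM, all SD, n = 3). Dock1 encodes an activator of the GTPase Rac, and Zfp423 a zinc finger factor of brain and fat development.

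The regions most clearly separated from the other libraries were shorter, of 203 to 350 bases. OCR_106548 (chr8:33219317-33219598, intergenic) held 4.13, 4.57 and 4.37 CPM in stimulated WT and at most 1.06 CPM elsewhere, a lowest value 3.9 times the highest other. OCR_43921 in an intron of Grin2a, a glutamate receptor gene, held 5.29, 3.65 and 5.2 CPM and at most 0.962 elsewhere. OCR_16372 (chr11:9108451-9108800) in an intron of Abca13, a transporter gene, held 4.8, 4.2 and 6.03 CPM in stimulated WT and 1.15, 0.927 and 1.05 CPM in ex vivo WT. It held 0.0651, 0.145 and 0.171 CPM in ex vivo Ikzf1-cko, from 1, 2 and 2 reads, and 0.108, 0.204 and 0.436 CPM in stimulated Ikzf1-cko, so that all WT libraries were above all Ikzf1-cko libraries. Between the ex vivo groups, both of which the rule held under the threshold, the fit over all tested regions gave a log2 fold change in Ikzf1-cko against WT of -2.94 ± 0.69 (SE, edgeR adjusted p = 0.0027). The call held in all 13 alternatives run, with log2 fold changes of -3.16 to -2.14. It is a description, since the rule and the ratio that named this region used the same libraries. Repeated 16-base words covered 29% of this region. It lies on chromosome 11, as does Ikzf1, and whether sequence linked to the floxed allele differs here was not tested.

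For each gene of the T cell lists, the region nearest to its start site within 100 kb was taken, and the 10 nearest of these are named. The nearest was OCR_78534 (chr4:48065721-48066090), 1.6 kb from the start of Nr4a3 in its intron. It held 4.96, 7.49 and 4.78 CPM in stimulated WT, 2.69, 3.58 and 1.74 in ex vivo WT, 2.8, 2.03 and 2.74 in ex vivo Ikzf1-cko and 2.93, 2.65 and 2.7 in stimulated Ikzf1-cko. The lowest stimulated WT value was 1.34 times the highest of the others. OCR_62691 lay 49.9 kb from Nr4a2 and OCR_43320, over an exon of Grasp, 34.9 kb from Nr4a1. Nr4a1 and Nr4a2 are orphan nuclear receptor genes of the same family.

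OCR_80228 lay 29.2 kb from Jun, a subunit of AP-1, and held 4.96, 4.93 and 3.95 CPM in stimulated WT, 2.12, 1.99 and 1.74 in ex vivo WT, 2.17, 2.44 and 2.62 in stimulated Ikzf1-cko and 0.912, 0.872 and 1.03 in ex vivo Ikzf1-cko. Between the Ikzf1-cko groups, both of which the rule held under the threshold, it rose with stimulation (log2 fold change 1.36 ± 0.36 SE, edgeR adjusted p = 0.0058). The call held in 12 of 13 alternatives and was lost with loess offsets, where the log2 fold change was 0.84. OCR_110622, 71 kb from Irf8, which encodes an interferon regulatory factor, held 2 AP-1 matches and 4.8, 3.84 and 5.2 CPM in stimulated WT, with 2.31, 2.12 and 1.16 in ex vivo WT and 0.326, 0.727 and 0.94 in ex vivo Ikzf1-cko. It was lower in ex vivo Ikzf1-cko than in ex vivo WT (log2 fold change -1.47 ± 0.48 SE, edgeR adjusted p = 0.026). That call was lost in 6 of 13 alternatives, with loess offsets, with the 6 compared libraries alone and without library 1 or 2 of ex vivo WT or of ex vivo Ikzf1-cko, over which the highest adjusted p was 0.16. The calls of OCR_80228 and OCR_110622 are descriptions, since the rule that chose these regions used the same libraries. OCR_21499, 54.2 kb from the cytokine signaling inhibitor Socs3, held 5.29, 5.3 and 4.99 CPM in stimulated WT and at most 3.14 CPM elsewhere, and OCR_102616, 78.8 kb from Lrrc32, which encodes the TGF-beta docking receptor of Treg, held 4.46, 5.66 and 6.24 CPM and at most 3.18.

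The last 3 named regions were near the threshold in several groups. OCR_49799, 74.2 kb from the kinase gene Pim1, held 4.13 to 5.2 CPM in stimulated WT and up to 3.04 elsewhere. OCR_111737, 79.2 kb from the folate receptor gene Folr4, held 3.74 to 4.2 CPM and up to 3.31 elsewhere, and OCR_56918 in an intron of Nfatc1, which encodes an NFAT factor, held 3.74 to 5.48 CPM and up to 3.56 elsewhere. Over the 10 regions near T cell genes, the lowest stimulated WT value was between 1.05 times (OCR_56918) and 1.66 times (OCR_110622) the highest other value.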

How the data were processed

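ATAC-seq reads of 12 Treg libraries (4 groups of 3) were used as the counts per open chromatin region that the authors deposited for 118680 regions. Per the methods, reads were aligned with Bowtie2 in the ENCODE pipeline, duplicates and blacklisted regions were removed, MACS2 peaks called in each replicate were merged and kept when at least 2 replicates held them, and the merged sets made 1 list. The study scaled its counts on genomic bins, which were not used here. The labels name mm9, to which the regions' coordinates correspond, whereas the methods print hg19 for the alignment step, and 200 regions had no place on the reference chromosomes. A weak peak of 1 group thus enters the list for all groups. Deposited FPKM values and the authors' own comparisons (fold changes and p-values) were not used.

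CPM was the count divided by the library total. A region was tested when it held at least 3.6 CPM in at least 3 libraries. edgeR 4.0.16 (quasi-likelihood test, all 12 libraries, library totals) was run in R 4.3.3 on 69957 regions, with Benjamini-Hochberg adjustment over all of them. Alternatives were TMM, loess offsets (span 0.3), DESeq2 1.42.0, the 6 compared libraries alone, a replicate block, each library left out with the tested regions kept, and other thresholds. On simulated counts of 69957 regions for stimulated against ex vivo WT, 187 of 200 regions given a true log2 change of 2 were recovered, with 6 false calls among the rest. All simulated libraries had the same profile over the regions and a fixed variation, and the weakest regions were not given a change. The simulation thus lacked the wider spread of reads of the stimulated WT libraries and does not measure false calls that come with it. Regions were placed on the mm9 annotation, and no soft-masked genome was used here, so that repeats were measured by 16-base words with at least 50 copies in the genome. Named regions were the 5 with the highest mean, 3 on each side of the threshold, the longest and the shortest. The 5 with the largest ratio of lowest stimulated WT to highest other value (with a floor of 3 reads) were named too. For each gene of the T cell lists the nearest region within 100 kb was taken, and the 10 nearest of these were named. The rule, the members and the lists were chosen with earlier results of these data known.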

Additional observations from a re-analysis of the deposited data

How the results depend on the processing

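The number of regions that met the rule was 9357 and depended on the scaling and the threshold. It was 4197 with TMM, 4304 with the size factors of DESeq2, 1347 with loess-normalized CPM, 8227 with libraries thinned to the smallest total, 11769 with a threshold of 3 CPM, 3396 with 5 CPM and 683 when the other libraries had to be under 1.8 CPM. Leaving out 1 library gave 9363 to 17275 regions, the highest without stimulated WT library 2. The share over a start site ran from 0.586% to 6.01% and the intergenic share from 57.8% to 62.7% over these settings, without the size factors of DESeq2 and with only the stimulated WT libraries left out in turn. The planned share of masked repeats was replaced, after the data were seen, by repeated 16-base words.

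Calls among the 9357 regions in stimulated against ex vivo WT were 8655 (92.5%, against 20.0% of all tested regions). They were 8539 to 8681 (91.3% to 92.8%, against 19.9% to 20.1%) with TMM, DESeq2 or the 6 compared libraries. With 1 library left out they were 7317 to 8616 (78.2% to 92.1%, against 16.3% to 21.5%), and with loess offsets 647 (6.91%, against 7.10%). In stimulated Ikzf1-cko against stimulated WT they were 8715 (93.1%, against 21.3%). In the same order they were 8428 to 8722 (90.1% to 93.2%, against 20.5% to 21.4%), 8180 to 8856 (87.4% to 94.6%, against 19.3% to 23.3%) and 511 (5.46%, against 6.74%). In ex vivo Ikzf1-cko against ex vivo WT they were 668 (7.14%, against 4.63%), 465 with TMM (4.97%, against 3.56%) and 389 with DESeq2 (4.16%, against 3.44%). They were 118 with the 6 libraries (1.26%, against 3.25%) and 78 with loess offsets (0.834%, against 2.27%). With 1 library left out they ran from 123 (1.31%, against 3.21%) to 4058 (43.4%, against 12.5%). The share was thus over that of all tested regions in some settings and under it in others. In stimulated against ex vivo Ikzf1-cko they were 896 (9.58%, against 3.65%). In the same order they were 783 (8.37%, against 3.36%), 663 (7.09%, against 3.19%), 393 (4.2%, against 2.81%) and 185 (1.98%, against 2.15%). With 1 library left out they ran from 276 (2.95%, against 2.17%) to 3781 (40.4%, against 9.71%). Counts of reads limit the rest, since the threshold is 17.3 to 55.3 reads in a library. Of the 7 named regions called in the last 2 comparisons, OCR_16372 was called in all 13 alternatives and OCR_80228 in 12, whereas OCR_83818, OCR_110622, OCR_49799, OCR_108879 and OCR_35135 were called in 10, 7, 6, 5 and 5, with no change of direction. The cause of these changes was not tested.

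With the replicate number as a block the calls were 8593, 8712, 501 and 670 in the 4 comparisons. These were 91.8%, 93.1%, 5.35% and 7.16%, against 19.9%, 21.3%, 4.39% and 3.31% of all tested regions. Per the methods, the sorted Treg were divided between stimulation and none, but the sources do not say which libraries share cells. Libraries of the same number did not deviate together (correlations of -0.355 to 0.284 over 18 pairs, 6 of them over 0.1), so that the replicate block was not used as a pairing. Between ex vivo and stimulated libraries of the same number they were 0.214, 0.009 and -0.0237 in WT and -0.315, 0.0624 and -0.345 in Ikzf1-cko.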
